A study of Mus musculus with 288 samples.

Results

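The genes of bile acid synthesis and transport examined here are the 9 rows Cyp7a1, Cyp8b1, Cyp27a1, Cyp7b1, Abcb11, Abcc2, Slc10a1, Slco1b2 and Nr0b2 out of 35904 genes measured in every library. They were chosen by symbol for their known roles and not by a measured value. RNA-seq libraries of liver, kidney, lung, heart, muscle and cerebellum came from wild-type male C57BL/6J mice aged 8 weeks, kept in normoxia or exposed to intermittent hypoxia (IH, oxygen cycling between 21 and 8%) for 7 days in their resting phase. All mice, controls included, were then kept in constant normoxic darkness for 2 days, and tissues were taken on the second of these days at 8 time points 3 h apart. With 3 replicates at each time point there were 24 libraries per tissue and treatment and 288 in all. The IH group was thus sampled after the exposure had ended, and times are given as the labels write them, without saying which point of the light cycle they count from. Values are TPM, a level scaled for transcript length and library size. The depth behind each value is unknown because the files hold no counts.

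Bile acids are made from cholesterol in the hepatocyte, the main epithelial cell of the liver, and are secreted into bile to help digest fat before most return in portal blood. Cyp7a1 encodes cholesterol 7-alpha-hydroxylase, the rate-limiting enzyme of the classic pathway, and Cyp8b1 the sterol hydroxylase needed for cholic acid. Cyp27a1, the mitochondrial sterol 27-hydroxylase, and Cyp7b1, the oxysterol 7-alpha-hydroxylase, act in the alternative pathway. Abcb11 is the bile salt export pump and Abcc2 an exporter of organic anions and conjugates, both of the canalicular membrane that faces the bile. Slc10a1 (NTCP) and Slco1b2 (an organic anion transporter) take bile acids up from blood. Nr0b2 (SHP) is a nuclear receptor without a DNA-binding domain, induced by the bile acid receptor Nr1h4 (FXR) and known to repress Cyp7a1 and Cyp8b1.

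In the GRCm38 annotation (GENCODE M21) Cyp7a1 lies at chr4:6265612-6275633 on the minus strand and Nr0b2 at chr4:133553376-133556536 on the plus strand. Cyp8b1, which has 1 exon, lies at chr9:121914356-121916305 (minus), Cyp27a1 at chr1:74713574-74737892 (plus) and Cyp7b1 at chr3:18071950-18243338 (minus). Abcb11 lies at chr2:69238282-69342616 (minus), Abcc2 at chr19:43782192-43840740 (plus), Slc10a1 at chr12:80953183-80968705 (minus) and Slco1b2 at chr6:141629518-141686646 (plus).

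Promoters of 7 of the 9 genes were matched in RefSeq (GRCm38.p6), and Cyp7a1 and Cyp7b1 were not. The 250 bases before the start of 3 genes are shown, Cyp8b1 and Abcb11 for their daily rhythm and their lower level after IH and Nr0b2 as the repressor, each written 5′ to 3′ on the strand of its gene. Capitals mark the letters matched in the motif search described after them. The windows are chr9:121916306-121916555 (minus) for Cyp8b1, chr2:69342617-69342866 (minus) for Abcb11 and chr4:133553126-133553375 (plus) for Nr0b2.
Cyp8b1: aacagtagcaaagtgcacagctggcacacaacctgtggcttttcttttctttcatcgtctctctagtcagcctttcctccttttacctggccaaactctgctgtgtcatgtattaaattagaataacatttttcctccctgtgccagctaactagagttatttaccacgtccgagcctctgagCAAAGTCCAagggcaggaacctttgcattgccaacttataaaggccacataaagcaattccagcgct
Abcb11: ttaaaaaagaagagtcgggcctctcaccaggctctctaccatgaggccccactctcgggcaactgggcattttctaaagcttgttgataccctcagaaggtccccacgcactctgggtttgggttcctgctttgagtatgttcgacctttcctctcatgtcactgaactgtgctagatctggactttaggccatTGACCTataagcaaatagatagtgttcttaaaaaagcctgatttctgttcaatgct
Nr0b2: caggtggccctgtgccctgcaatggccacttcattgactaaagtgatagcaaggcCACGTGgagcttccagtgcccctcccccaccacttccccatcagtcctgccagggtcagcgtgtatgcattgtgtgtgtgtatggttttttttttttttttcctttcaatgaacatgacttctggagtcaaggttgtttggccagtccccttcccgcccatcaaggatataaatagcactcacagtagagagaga
The letters AGGTCA, the core bound by many nuclear receptors, or their reverse complement were in the promoters of Abcb11, Abcc2, Slc10a1 and Slco1b2, and in 14.0% of 32851 promoters of this length searched on both strands. The E-box CACGTG, the element of the clock factors, was in that of Nr0b2 alone among the 7 and in 6.02% of all. The HNF4A-like letters CAAAGTCCA were in that of Cyp8b1 alone among the 7 and in 0.384% of all. The D-box letters TTATGTAA were in none of the 7 windows and in 0.819% of all. A match describes these letters only.

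Each of the 9 genes had its highest level in the liver. Over the 24 normoxia libraries of the liver, Slc10a1 averaged 299 ± 48.3 TPM (SD), Cyp27a1 292 ± 37.9 TPM and Slco1b2 269 ± 79.5 TPM. Cyp8b1 averaged 157 ± 68.3 TPM, Abcb11 144.4 ± 37.7 TPM and Cyp7b1 138 ± 40.1 TPM. The lowest of the 9 were Abcc2 at 61.9 ± 23.6 TPM, the repressor Nr0b2 at 34.7 ± 14.6 TPM and Cyp7a1 at 29.2 ± 16.9 TPM. The uptake transporters and the mitochondrial hydroxylase thus had the highest levels and the rate-limiting enzyme the lowest.

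The 9 genes differed in how far they reached beyond the liver. Abcc2 averaged 45.3 ± 14.98 TPM in the kidney, 73.2% of its liver level, and Cyp7b1 59.4 ± 13.8 TPM there, 43.2% of its liver level. These shares are of TPM as deposited. On the scaled values of the limma test the liver lay further above the kidney, by 1.22 on the log2 scale for Abcc2 and 1.98 for Cyp7b1. The step passed for Abcc2 (limma adjusted p = 6.72e-26), beside 75.8% of genes. Cyp27a1 was present in all 6 tissues, at 58.3 ± 7.97 TPM in muscle, 23.7 ± 4.25 TPM in kidney, 17.9 ± 2.83 TPM in lung, 17.1 ± 4.44 TPM in heart and 12.3 ± 3.13 TPM in cerebellum. Every step in that order, from the liver down, passed the limma test, as did 79.5, 78.7, 81.8, 79.1 and 86.8% of 18080 genes at the same steps, but on the scaled values the heart lay above the lung by 1.08 on the log2 scale, the reverse of the order of the deposited means. Cyp7b1 averaged 4.85 ± 0.967 TPM in cerebellum and 1.51 ± 0.203 TPM in lung, and Nr0b2 averaged 5.65 ± 1.12 TPM in heart, 2.02 ± 0.341 TPM in kidney and 1.89 ± 0.539 TPM in cerebellum. The steps from liver to kidney, cerebellum and lung passed for Cyp7b1 (beside 75.8, 87.7 and 89.8% of genes) and those from liver to heart, kidney and cerebellum for Nr0b2 (beside 81.7, 83.3 and 87.7%). Cyp8b1 averaged 1.53 ± 0.584 TPM in lung.

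The remaining levels outside the liver were under 1 TPM, except Slco1b2 in the cerebellum. There it averaged 3.82 ± 5.18 TPM, with a lowest library at 0.0908, a median of 1.26 and a highest of 21.6 TPM. The SD above the mean shows that a few libraries carried most of this level. The library at 21.6 TPM, from normoxia at 7:30, also held 6.70 TPM of Cyp7a1 but 0.393 TPM of Slc10a1 and 15.9 TPM of the hepatocyte gene Alb. Several low neighbours did not differ beyond their spread. For Cyp7a1 these were heart, lung, kidney and muscle (adjusted p from 0.251 to 0.988), and for Cyp8b1 heart, muscle, cerebellum and kidney (0.0949 to 0.826), by limma with Benjamini-Hochberg adjustment. The same held for Abcb11 between cerebellum and heart (0.252) and among kidney, muscle and lung, for Abcc2 between muscle and heart (0.554), for Slc10a1 between lung and muscle (0.134), for Slco1b2 among kidney, muscle and lung, and for Nr0b2 between lung and muscle.

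**Figure D1:**
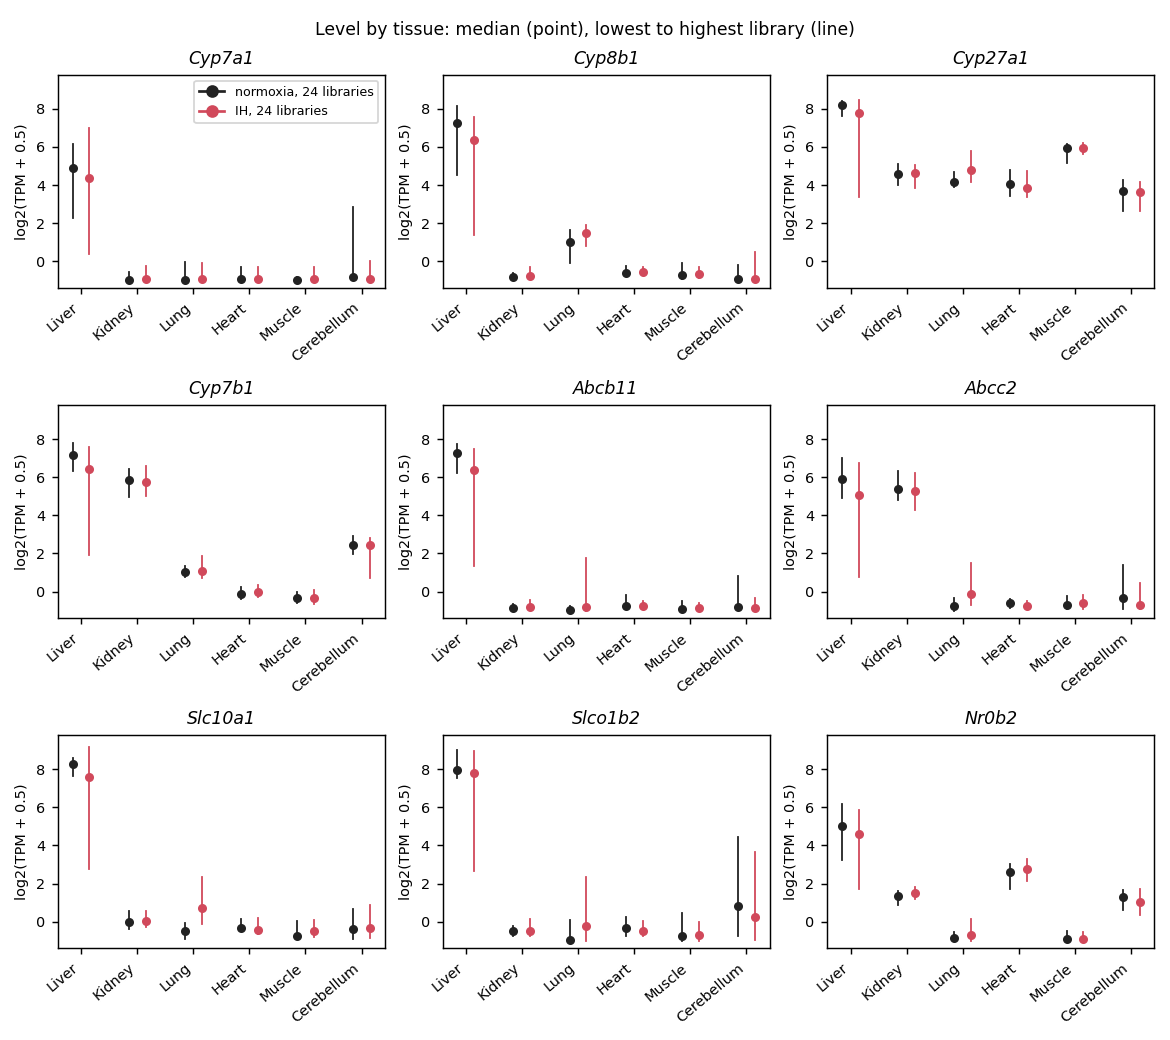
Levels of the 9 genes in normoxia and after IH (y axis, log2 of TPM + 0.5) in the 6 tissues (x axis), with a point at the median of 24 libraries and a line from the lowest to the highest library. Liver medians lie highest for each gene, Cyp27a1 is present in every tissue, and Cyp7b1 and Abcc2 stand high in the kidney too.

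In the liver, 4 of the 9 genes were lower after IH and none was higher, namely Cyp8b1, Abcb11, Cyp7b1 and Abcc2. The call required an adjusted p of at most 0.05 and a change of at least 1.5-fold in limma on log2(TPM + 0.5), a scale that understates changes of low genes, and over all 11334 genes tested it passed 3.66% (2.56% lower after IH). The median change of the 9 genes was -0.50 on the log2 scale beside -0.01 over all genes tested. All 4 calls rest on replicates 1 and 2, and 1 library lay far from the rest, as described after the values. In bulk tissue, fewer cells of a type and less RNA per cell cannot be told apart.

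Cyp8b1 ranged from 22.97 to 281 TPM with a median of 154 in normoxia, and from 2.13 to 192 TPM with a median of 81.7 after IH. The ranges overlapped, but 20 of 24 IH libraries lay below the normoxia median. Its log2 change was -0.91 ± 0.28 (SE, limma adjusted p = 0.0161). Abcb11 ranged from 74.1 to 216 TPM (median 155) in normoxia and from 2.01 to 177 TPM (median 82.3) after IH. Of the IH libraries, 11 of 24 fell under the lowest normoxia library, and the rest overlapped. The bile salt export pump had a log2 change of -0.84 ± 0.23 (limma adjusted p = 0.00562).

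Cyp7b1 ranged from 79.5 to 221 TPM (median 145) in normoxia and from 3.32 to 188 TPM (median 84.2) after IH, with 10 of 24 IH libraries below every normoxia library. Its log2 change was -0.69 ± 0.22 (limma adjusted p = 0.0202). Abcc2 ranged from 30.0 to 126 TPM (median 58.6) and from 1.23 to 107 TPM (median 33.5), again with 10 of 24 IH libraries below the normoxia range. The log2 change of this canalicular exporter was -0.67 ± 0.23 (limma adjusted p = 0.0251). For all 4 genes the mean TPM of the IH group was lower at 8 of 8 time points, in the same libraries that gave these changes.

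The other 5 genes did not pass. Cyp27a1 had values of 196 to 344 TPM (median 298) in normoxia and 9.86 to 353 TPM (median 217) after IH, a log2 change of -0.41 ± 0.16 (adjusted p = 0.0583). Its IH mean was lower at 8 of 8 time points. Slc10a1 had values of 199 to 383 TPM (median 306) and 6.33 to 576 TPM (median 194). IH libraries of this uptake transporter lay on both sides of normoxia, 12 below its lowest and 5 above its highest value, with a log2 change of -0.50 ± 0.22 (adjusted p = 0.0891). Nr0b2 had values of 8.92 to 72.5 TPM (median 32.3) and 2.74 to 57.4 TPM (median 24.2), with a log2 change of -0.39 ± 0.22 (adjusted p = 0.202).

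Cyp7a1, the rate-limiting enzyme, had values of 4.35 to 71.0 TPM (median 29.8) in normoxia and 0.823 to 126 TPM (median 20.04) after IH. The IH range enclosed that of normoxia, and the log2 change was -0.27 ± 0.32 (limma adjusted p = 0.567) with lower IH means at 4 of 8 time points. Slco1b2 had values of 184 to 516 TPM (median 247) and 5.91 to 495 TPM (median 227), a log2 change of -0.22 ± 0.21 (adjusted p = 0.453).

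**Figure D2:**
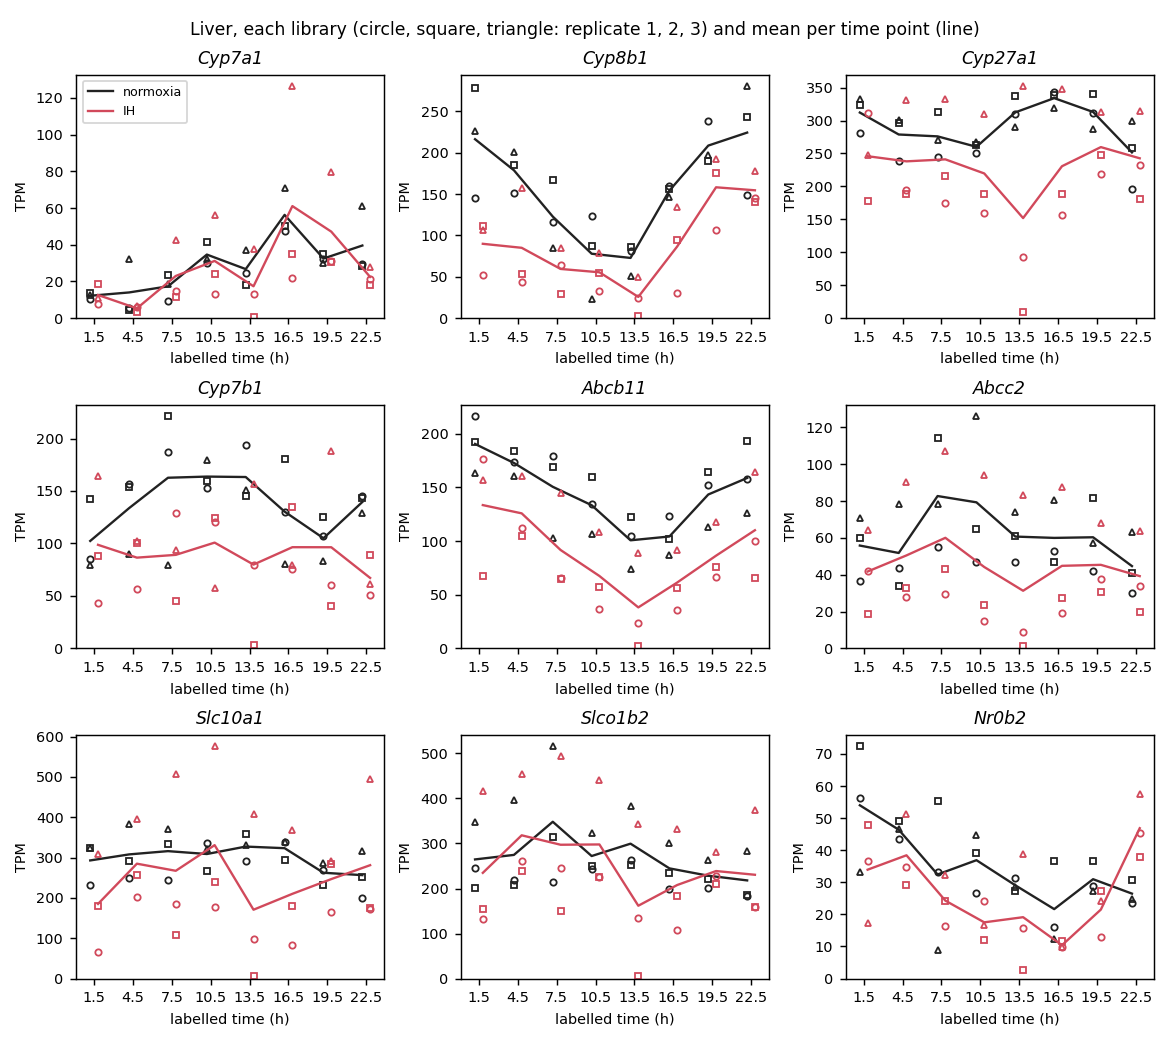
Liver levels of the 9 genes (y axis, TPM) over the labelled time (x axis, hours), with a symbol per library (circle, square and triangle for replicates 1, 2 and 3) and lines through the means of 3 libraries for normoxia and IH. The IH means of Cyp8b1, Abcb11, Cyp7b1 and Abcc2 lie below those of normoxia at 8 of 8 time points, and those of Cyp7a1 at 4 of 8.

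The liver IH library of replicate 2 at 13:30 stood apart, and it held the lowest IH value of each of the 9 genes. It had 2.13 TPM of Cyp8b1 where the other 23 IH libraries had 24.7 to 192 TPM, 2.01 of Abcb11 (others 23.8 to 177) and 9.86 of Cyp27a1 (others 93.2 to 353). The 12 hepatocyte marker genes summed to 1729 TPM in it, against 39326 to 90601 TPM in the other 23 IH libraries and 75177 to 114904 TPM in normoxia, while 12 heart marker genes summed to 10908 TPM. By these markers it went against its label. Without it 2 of the 9 genes passed, Cyp8b1 (-0.74 ± 0.23, limma adjusted p = 0.0152) and Abcb11 (-0.66, adjusted p = 0.000861), beside 3.05% of all genes. Cyp7b1 (-0.54, adjusted p = 0.0153), Abcc2 (-0.51, adjusted p = 0.019) and Cyp27a1 (-0.26, adjusted p = 0.00766) were then also lower by p but short of 1.5-fold. The share of all genes lower by p alone in that fit is not given here, and with all libraries it was 13.3%.

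The replicates did not move alike. In replicate 1 alone, 8 IH against 8 normoxia libraries, 5 of the 9 genes were lower after IH beside 13.2% of genes called. These were Cyp8b1 (-1.29), Abcb11 (-1.13), Slc10a1 (-0.87), Cyp7b1 (-0.84) and Abcc2 (-0.72). In replicate 2 alone Abcb11 (-1.65) and Abcc2 (-1.48) were lower beside 8.85% of genes. In replicate 3 alone all 9 log2 changes were above 0, from 0.02 for Cyp8b1 to 0.38 for Slc10a1, and limma called 0 of the 9, with 2 at an unadjusted p under 0.05, beside 0.00872% of genes. Leaving out replicate 1 left 0 of the 9 genes called by limma (beside 0.42% of all genes), leaving out replicate 2 left 0 (0.645%), and leaving out replicate 3 gave 7 (13.3%). The members' count thus moved with the count over all genes.

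The median level of each gene shows the same split. The IH median of Abcb11 was 65.7 TPM in replicate 1, 65.2 TPM in replicate 2 and 131 TPM in replicate 3, where normoxia had 155, 167 and 110 TPM. Slc10a1 had IH medians of 169, 180 and 402 TPM and normoxia medians of 259, 292 and 327 TPM. Abcc2 had IH medians of 28.7, 25.6 and 85.6 TPM and normoxia medians of 45.1, 60.6 and 76.2 TPM. For these 3 transporters the IH libraries of replicate 3 had the highest median of the 3 replicates.

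**Figure D3:**
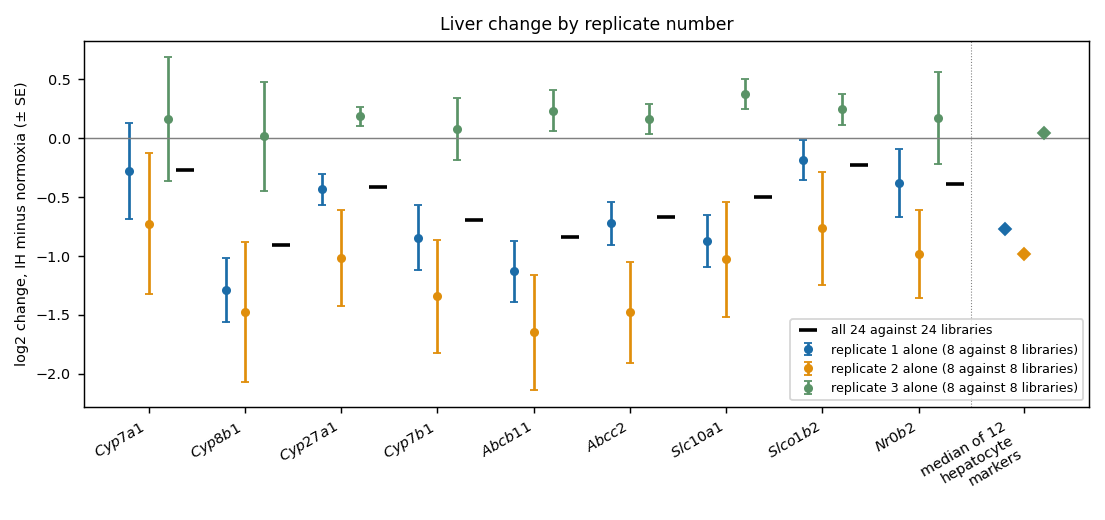
Log2 change of each gene between IH and normoxia in the liver (y axis), for each replicate number alone (8 against 8 libraries, circles with bars of 1 standard error) and for all 24 against 24 libraries (dashes), with the median of 12 hepatocyte markers as diamonds. Values lie below 0 in replicates 1 and 2 and above 0 in replicate 3 for each of the 9 genes.

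Hepatocyte markers moved with these changes, and markers of kidney and heart differed between the treatments. In replicates 1, 2 and 3 the kidney marker medians were 3.45, 4.95 and 118 TPM in normoxia and 106, 100 and 85.8 TPM after IH. The heart marker medians were 20.7, 20.1 and 82.1 TPM in normoxia and 65.6, 58.5 and 58.5 TPM after IH. Both medians were thus higher after IH in replicates 1 and 2 and lower in replicate 3. Of 12 hepatocyte markers, 5 were called lower after IH (Alb, Ahsg, Fgb, Fgg and F2, from -0.59 to -0.74), and the median of the list was -0.54. Per replicate this median was -0.77, -0.99 and 0.04, with 12, 12 and 4 of the 12 markers lower. Without the library that stood apart Alb was at -0.56, Ahsg at -0.46, Fgb at -0.42, Fgg at -0.42 and F2 at -0.44. All 5 were then lower by p (limma adjusted p from 0.000344 to 0.00226) but short of 1.5-fold. With the summed hepatocyte marker level as a further term, 0 of the 9 genes were called by limma, beside 2.44% of all genes. This fit held the library that stood apart, whose marker sum lay far below all others and can weigh heavily on the term. No such fit without that library is given here. The changes of the 4 called genes were then -0.45 for Cyp8b1, -0.38 for Abcb11, -0.33 for Cyp7b1 and -0.20 for Abcc2 (adjusted p from 0.0743 to 0.346), and Slco1b2 alone passed the adjusted p, at 0.27 (0.0394). Of 10 cholangiocyte markers 7 were tested and 0 called, with 1 lower and 1 higher by adjusted p (median -0.06), and of 12 markers of other liver cells 0 were called, with 2 higher by adjusted p (median 0.09). Kidney markers summed to 46.0 to 138 TPM in the other 23 IH livers, to 117 to 131 TPM in 5 normoxia livers that were all of replicate 3, and to 1.31 to 13.2 TPM in the other 19. Heart markers summed to 41.7 to 85.1 TPM in the same 23 IH livers, to 16.2 to 33.9 TPM in normoxia replicates 1 and 2, and to a median of 82.1 TPM in normoxia replicate 3. With the kidney marker level as a further term 0 of the 9 genes were called, beside 5 genes in all, but that level and the treatment can hardly be told apart, since every IH library lay above 19 of the 24 normoxia libraries. The part of these marker shifts in the members' changes was not tested.

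At single time points no gene of 11334 passed, with 3 libraries against 3, while 306 to 2660 genes had an unadjusted p under 0.05. Of the 72 values given by 9 genes at 8 time points, 61 were below 0 and 8 had an unadjusted p under 0.05. All of these 8 but Cyp8b1 at 4:30 fell at 13:30, the time point of the library that stood apart, where 2660 genes did so. The values come from the same libraries as the changes over the day, so their signs are no further test. The share of all genes below 0 is not given here. The lowest was Abcb11 at 13:30, with a log2 change of -1.95, and the highest Nr0b2 at 22:30, with 0.85. Without the library that stood apart 59 values were below 0, 5 had an unadjusted p under 0.05, and the lowest was Cyp8b1 at 4:30 with -1.44. At 13:30 849 of 11243 genes then had an unadjusted p under 0.05.

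Beyond the 9 genes, lists of other bile acid genes held 2 calls in the liver. Of 13 further synthesis genes 12 were tested and 1 was lower after IH, Hsd17b4, a peroxisomal enzyme that shortens the sterol side chain (171.9 ± 26.3 TPM in normoxia and 119 ± 60.5 TPM after IH, -0.61 ± 0.14, limma adjusted p = 0.00139). Slc27a2, an acyl-CoA synthetase, passed by p alone at -0.54 (adjusted p = 0.00957), as did 13.3% of all genes in that direction. Of 15 further transporters 12 were tested and 1 was lower, Abcc3, which exports bile acids and conjugates to the blood side. It ranged from 64.7 to 121 TPM (median 91.0) in normoxia and from 1.47 to 89.1 TPM (median 29.0) after IH, a log2 change of -1.41 ± 0.21 (limma adjusted p = 2.87e-06), beyond that of any of the 9 genes in the same fit. For Hsd17b4 and Abcc3 no fit by replicate or without the library that stood apart is given here. Slc10a2, the apical bile acid transporter, passed by p alone at -0.54 (adjusted p = 0.00788).

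Of 16 regulators 15 were tested, and limma called 0 and passed 0 by adjusted p, with 1 at an unadjusted p under 0.05. Nr1h4, the bile acid receptor upstream of Nr0b2, had a log2 change of -0.28 (adjusted p = 0.219) and Hnf4a, a hepatocyte transcription factor, -0.19 (adjusted p = 0.504). The medians of the 3 lists were -0.27, -0.26 and -0.17.

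Over the day in normoxia, 3 of the 9 genes were rhythmic in the liver at a period of 24 h, beside 14.4% of 14482 genes. The test was a limma F test of cosine and sine terms on the log2 values. Cyp7a1 had an amplitude of 0.98 ± 0.18 and a peak at 16.6 ± 0.694 h (adjusted p = 0.0015), with time point means from 12.2 TPM at 1:30 to 56.3 TPM at 16:30. Cyp8b1 had an amplitude of 0.90 ± 0.17 and a peak at 23.3 ± 0.715 h (adjusted p = 0.00201), from 72.8 TPM at 13:30 to 224 TPM at 22:30. The enzymes of the classic pathway thus peaked hours apart. Abcb11 had an amplitude of 0.44 ± 0.11 and a peak at 2.30 ± 0.992 h (adjusted p = 0.0273), from 101 TPM at 13:30 to 191 TPM at 1:30.

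The remaining 6 genes did not pass in normoxia. Slco1b2 had adjusted p = 0.0704, Abcc2 0.162, Slc10a1 0.223, Nr0b2 0.296, Cyp7b1 0.487 and Cyp27a1 0.559. Nr0b2, whose fitted peak was at 3.63 ± 1.70 h, had its highest mean of 54.0 TPM at 1:30 and its lowest of 21.6 TPM at 16:30, the time points of the lowest and highest mean of Cyp7a1. For the phase of the day, the clock genes peaked at 7.45 h (Nr1d1), 10.2 h (Dbp), 14.8 h (Per2) and 22.1 h (Arntl). The count of rhythmic members rests on each replicate, being 1 without replicate 1 (beside 6.58% of all genes), 1 without replicate 2 (5.9%) and 5 without replicate 3 (13.7%).

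After IH limma found 0 of the 9 genes rhythmic, with 4 at an unadjusted p under 0.05, beside 2.33% of all genes. Cyp7a1 had an amplitude of 0.99 with a peak at 16.9 h (adjusted p = 0.267), Cyp8b1 0.97 at 22.7 h (0.114), Abcb11 0.85 at 1.85 h (0.136) and Nr0b2 0.73 at 2.13 h (0.11). Without the library that stood apart the same 3 genes as in normoxia passed, Cyp7a1 (adjusted p = 0.0017), Cyp8b1 (0.0138) and Abcb11 (0.0208), beside 5.68% of all genes. Without replicate 2 the count was 2, beside 1.69%. The difference in rhythm between treatments, tested directly, passed for 0 of 14482 genes, of which 116 had an unadjusted p under 0.05. The unadjusted p of the 9 genes in that test ran from 0.243 to 0.987. A p above the threshold does not show that the rhythms were alike.

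**Figure D4:**
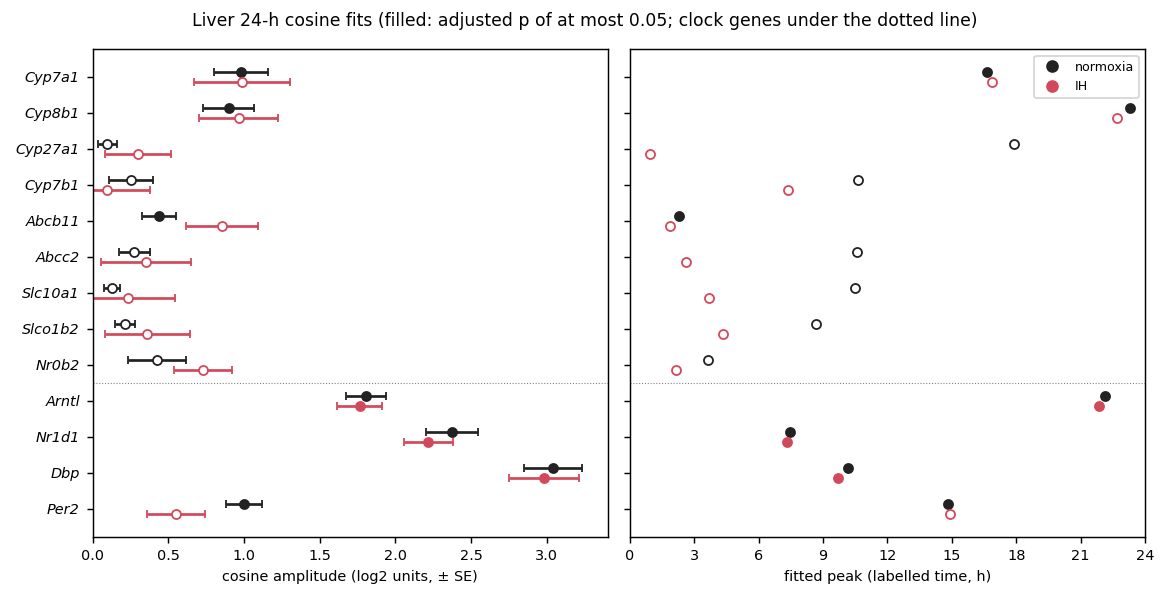
Cosine fits of the 9 genes and 4 clock genes (rows) in the liver in normoxia and after IH, with the amplitude in log2 units and bars of 1 standard error (left) and the fitted peak in labelled hours (right), and filled symbols for genes at an adjusted p of at most 0.05. Cyp7a1, Cyp8b1 and Abcb11 are filled in normoxia, at 16.6, 23.3 and 2.30 h, and none of the 9 genes is filled after IH.

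Of the further bile acid genes, 4 of 12 synthesis genes, 4 of 14 transporters and 4 of 15 regulators were rhythmic in normoxia, where 14.4% of all genes were. After IH, with the library that stood apart included, 1 synthesis gene was, and 0 of the transporters and regulators, where 2.33% of all genes were. That gene was Hsd3b7, an early enzyme of the pathway, named after its values were seen, with peaks at 2.72 h in normoxia (adjusted p = 1.13e-08) and 2.50 h after IH (adjusted p = 0.014). Abcg5 and Abcg8, the paired sterol exporter to bile and likewise named after their values were seen, peaked at 9.89 and 8.81 h in normoxia. Their lowest means of 13.7 and 10.4 TPM fell at 22:30 and their highest of 67.0 and 48.8 TPM at 10:30. Without the library that stood apart 5.68% of all genes were rhythmic after IH, and no fit of these lists without it is given here.

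Across the 24 normoxia livers Nr0b2 and Cyp7a1 gave Pearson's r = -0.485 (permutation p = 0.0168, adjusted over 6 relations 0.0608) and Spearman's rho = -0.411 (permutation p = 0.0463, adjusted 0.0926). Without the 2 libraries farthest on the x axis r was -0.408. After IH the same pair gave r = -0.22 (permutation p = 0.313, adjusted 0.376). None of the 6 relations among Nr0b2, Cyp7a1 and Cyp8b1 passed the adjustment, the others reaching r = 0.461 for Nr0b2 with Cyp8b1 and 0.429 for Cyp7a1 with Cyp8b1, both after IH. Without the library that stood apart these were 0.391 and 0.39, and without the 2 farthest libraries of all 24 they were 0.278 and 0.277. The libraries share time points, so daily rhythm enters each value.

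The genes most like a member over these 24 libraries, among 7267 genes at a mean of at least 5 TPM, are given as a description. For Cyp7a1 they were Glrx (r = 0.753), Nr1h4 (0.748) and Pcp4l1 (0.731). For Cyp8b1 they were Anp32a (0.915) and Psen2 (0.915), and for Nr0b2 Klkb1 (0.741), Hal (0.738) and Ccpg1os (0.726). Among the members themselves Abcb11 stood closest to Nr0b2, at rank 12 with r = 0.637, and Cyp7a1 and Abcb11 ran opposite, at r = -0.596.

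In the kidney 4 of the 9 genes were tested and limma called 0 of them, with 2 at an unadjusted p under 0.05, beside 0.783% of genes. Nr0b2 was higher after IH by adjusted p alone, as were 8.25% of genes. It ranged from 1.35 to 2.54 TPM (median 2.06) in normoxia and from 1.77 to 3.04 TPM (median 2.32) after IH, with 8 of 24 IH libraries above every normoxia library. Its log2 change was 0.22 ± 0.05 (limma adjusted p = 0.00305), and it did not pass on TPM as deposited (0.18, adjusted p = 0.0541) or without replicate 1 (0.16, adjusted p = 0.0689). Cyp7b1, high in this tissue, had a log2 change of -0.02 (adjusted p = 0.899), Abcc2 -0.20 (0.199) and Cyp27a1 0.10 (0.111). Abcc2 was rhythmic in the normoxia kidney, as were 18.6% of genes, with an amplitude of 0.30 and a peak at 4.32 h (adjusted p = 0.0101), and after IH, when 5.38% of genes passed, it did not (0.903). The difference between these rhythms gave an unadjusted p of 0.201.

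In the lung 3 of the 9 genes passed the filter on low values and limma called 0, with 3 at an unadjusted p under 0.05, beside 4.39% of genes called lower and 9.12% called higher. By adjusted p alone Cyp27a1 and Cyp8b1 were higher after IH, as were 28.9% of genes, and Cyp7b1 was lower, as were 41.5%. Cyp27a1 ranged from 14.3 to 25.2 TPM (median 17.3) in normoxia and from 17.5 to 55.2 TPM (median 27.4) after IH, with 15 of 24 IH libraries above every normoxia library. Its log2 change was 0.45 ± 0.09 (limma adjusted p = 9.41e-06), 0.75 on TPM as deposited, where all genes shifted by 0.21 at the median, and -0.08 with the number of detected genes as a further term. By replicate number alone it was 0.87, 0.45 and 0.01. In the same lungs 8 of 8 epithelial markers of the cholangiocyte list were lower by adjusted p (4 called, median -0.59), and heart markers summed to a median of 417 TPM in normoxia and 770 TPM after IH. The part of these shifts in the members' changes was not tested.

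Lung Cyp8b1 ranged from 0.439 to 2.66 TPM (median 1.51) in normoxia and from 1.23 to 3.26 TPM (median 2.27) after IH, with a log2 change of 0.25 ± 0.11 (limma adjusted p = 0.0364). It did not pass without replicate 2 (0.23, adjusted p = 0.117) or without replicate 3 (0.13, adjusted p = 0.393). Lung Cyp7b1 changed by -0.15 ± 0.07 (adjusted p = 0.0429) and turned to 0.08 on TPM as deposited and 0.05 with upper quartile scaling. Cyp8b1 was also rhythmic in the normoxia lung, beside 6.8% of genes, with an amplitude of 0.44 and a peak at 13.49 h (adjusted p = 0.00562), where its liver peak was at 23.3 h. After IH, when 3.38% of lung genes passed, it did not (adjusted p = 0.216), and the difference between these rhythms gave an unadjusted p of 0.202.

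The uptake transporter Slc10a1 lay under the filter in the lung, with 0.0255 to 0.453 TPM (median 0.213) in normoxia and 0.408 to 4.65 TPM (median 1.16) after IH. All but 2 of the 24 IH libraries lay above the highest normoxia library. In a fit without the filter, in which 9.11% of 34148 genes were called (7.12% higher after IH), it was higher by 1.20 ± 0.13 (limma adjusted p = 1.55e-10). Abcc2 was higher too, by 0.67 ± 0.12 (adjusted p = 5.61e-06), from 0 to 0.298 TPM in normoxia and from 0.115 to 2.35 TPM after IH. The lung IH library of replicate 1 at 22:30 held 835 TPM of hepatocyte markers, against 4.81 to 29.4 TPM in the other 23 IH libraries, and without it the changes were 1.14 for Slc10a1 and 0.60 for Abcc2. In replicate 3 alone Slc10a1 changed by 0.43 (adjusted p = 0.0223) and Abcc2 by 0.14 (adjusted p = 0.22).

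**Figure D5:**
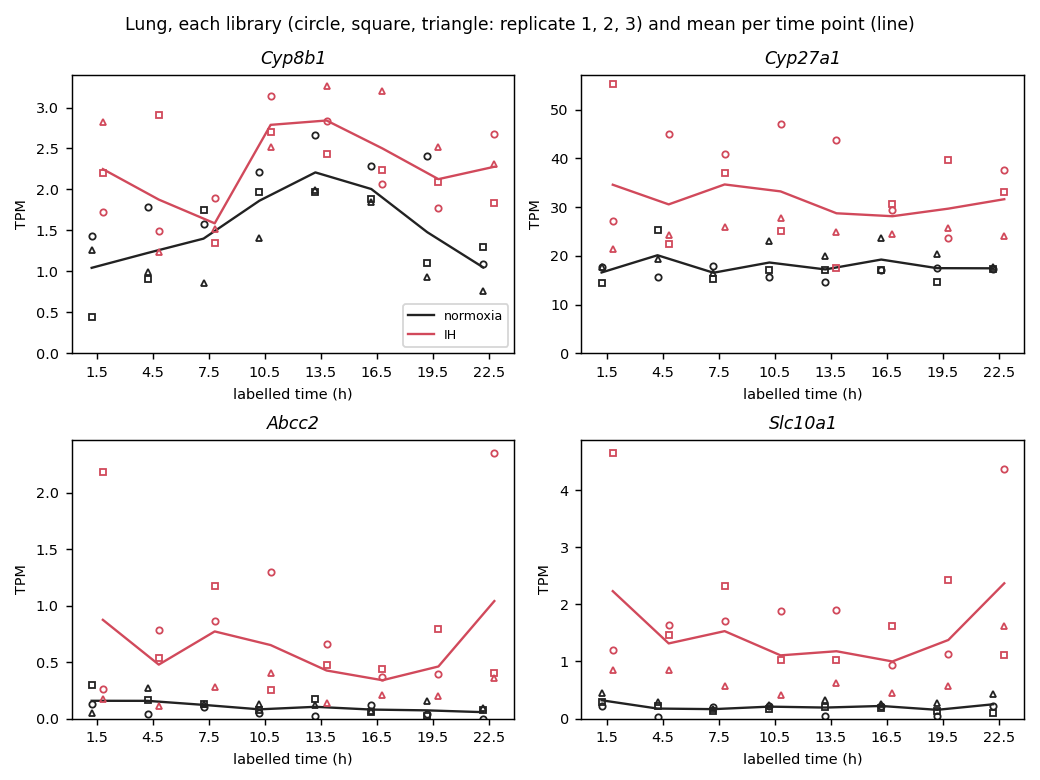
Lung levels of Cyp8b1, Cyp27a1, Abcc2 and Slc10a1 (y axis, TPM) over the labelled time (x axis, hours), with a symbol per library (circle, square and triangle for replicates 1, 2 and 3) and lines through the means of 3 libraries for normoxia and IH. IH means lie above normoxia at each of the 8 time points for all 4 genes.

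In the heart 2 of the 9 genes were tested and limma called 0, with 1 at an unadjusted p under 0.05, beside 2.95% of genes. Cyp27a1 was lower after IH by adjusted p alone, as were 17.3% of genes, from 10.4 to 27.6 TPM (median 16.0) in normoxia to 9.77 to 26.6 TPM (median 13.8). The groups overlapped, the IH mean was lower at 8 of 8 time points, and the log2 change was -0.36 ± 0.09 (adjusted p = 0.00111), but 0.05 in replicate 3 alone and -0.21 without replicate 1 (adjusted p = 0.201). In the same hearts 28% of all genes were higher by adjusted p. Of the markers of non-parenchymal cells (vessel, immune and connective tissue cells) 7 of 9 were (median 0.44), and of the cholangiocyte markers 4 of 5 (median 0.38). Their part in the change of Cyp27a1 was not tested. Nr0b2 had a log2 change of 0.04 (adjusted p = 0.774). In muscle Cyp27a1 alone was tested, with a log2 change of -0.06 (adjusted p = 0.447) where 0.374% of genes were called.

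In the cerebellum 4 of the 9 genes were tested and limma called 0, with 1 at an unadjusted p under 0.05, beside 2.64% of genes. Slco1b2 had a median of 1.26 TPM in normoxia and 0.686 TPM after IH, in ranges from 0.0908 to 21.6 TPM and from 0.0157 to 12.1 TPM. Its log2 change was -0.90 ± 0.37 (adjusted p = 0.0936), and without the IH library of replicate 3 at 1:30, which held its highest IH value, -1.09 (adjusted p = 0.0166), beside 776 of 14861 genes called. It passed without replicate 3 as well (-1.54, adjusted p = 0.00474), beside 1971 of 15084 genes. Without 7:30, the time of its highest normoxia value, the change was -0.62 (adjusted p = 0.327), so the value turns on a few libraries in either group.

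Whether the treatment change differed between tissues was tested by the interaction of treatment with tissue, taking libraries as independent although tissues may come from the same mice. Against the kidney 3 of 4 genes differed, beside 30.3% of genes. The kidney change minus the liver change was 0.67 ± 0.25 for Cyp7b1 (limma adjusted p = 0.0345), 0.61 ± 0.23 for Nr0b2 (0.0375) and 0.51 ± 0.17 for Cyp27a1 (0.0156), and 0.47 ± 0.25 for Abcc2 did not pass (0.15). Without the liver library that stood apart Nr0b2 did not pass (adjusted p = 0.054), without replicate 1 or replicate 2 none of the 4 did, and without replicate 3 all 4 did.

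Against the lung 3 of 3 genes differed, beside 52.6% of genes. The lung change minus the liver change was 1.16 for Cyp8b1 (adjusted p = 0.00105), 0.86 for Cyp27a1 (6.51e-05) and 0.54 for Cyp7b1 (0.0461). Cyp7b1 did not pass without the liver library that stood apart (0.39, adjusted p = 0.0637) or without replicate 1 or 2. Against the heart 0 of 2 genes passed in limma, with 0 at an unadjusted p under 0.05, beside 35.2% of genes. Against muscle 0 of 1 passed, with 1 at an unadjusted p under 0.05, beside 22.1%, and against the cerebellum 0 of 4, with 2, beside 22.3%.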

How the data were processed

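RNA was extracted with Trizol and libraries were made with a strand-specific kit. Per the labels and methods, the authors quantified reads with kallisto against Ensembl release 102 transcripts, summed them to genes and deposited TPM. Their submitters' processing notes name mm10, bcl2fastq, FastQC 0.11.3, kallisto and DESeq2, whose results on estimated counts were not used here. Each library summed to between 989211 and 999188 TPM, and depth is unknown. Gene positions came from GENCODE M21.

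Each library was scaled by its median ratio to the genes' geometric means, and log2(TPM + 0.5) was fitted with limma 3.58.1 (intensity trend, 2-sided) in R 4.3.3, for genes at a mean of at least 1 TPM over the 48 libraries of a tissue. P-values were adjusted by Benjamini-Hochberg over all genes tested, and a call needed at most 0.05 and at least 1.5-fold. Rhythm was tested by 1 cosine F test (maximum of at least 1 TPM), because 2 rhythm tests of the same values, combined, give p-values that are too small. Relations between genes used 100000 permutations. Other values came from Python 3.11.15 with numpy 2.4.6, scipy 1.17.1 and pandas 2.3.3, and figures from matplotlib 3.10.9. The fits were tested on simulated data. The labels do not say how replicates were drawn, so p-values measure the spread between these samples.

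Named were the 9 genes in every tissue, the other listed bile acid genes called in the liver, 4 clock genes, and the 3 genes most like Cyp7a1, Cyp8b1 and Nr0b2. Markers that moved with a member or differed between the treatments were named too. Of the genes most like Cyp8b1, 1 is not reported here. Genes and lists were chosen with earlier results of these data known. Alternatives were other pseudocounts, filters and scalings, replicates or time points left out, a replicate block, marker terms and other rhythm tests.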

Additional observations from a re-analysis of the deposited data

Results flagged for a closer look

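The treatment change differed between the liver and another tissue for 6 gene and tissue pairs, by the limma interaction test given in the report. The kidney minus liver difference on the log2 scale was 0.51 for Cyp27a1, 0.67 for Cyp7b1 and 0.61 for Nr0b2. The lung minus liver difference was 0.86 for Cyp27a1, 0.54 for Cyp7b1 and 1.16 for Cyp8b1. In the liver these genes had values below 0, from -0.39 for Nr0b2 to -0.91 for Cyp8b1, and in the other tissue values from -0.15 for lung Cyp7b1 to 0.45 for lung Cyp27a1. The liver replicates 1 and 2 carry the liver side of each difference. The share of all genes that passed the same test was 30.3% against the kidney and 52.6% against the lung.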

How the results depend on the processing

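Of 372 alternative values of single genes, 288 kept direction and side of the threshold, 49 fell short of it, 12 newly passed and 23 turned direction. Of 174 alternative counts 141 stayed within 1.5 times and 33 moved further. Many were counts of 0 in tissues with few members tested, such as 1 in muscle, that could hardly move. The share that stayed is thus no measure of stability. The liver count of 4 became 2 without the filter, 2 in replicate 2 alone, 0 in replicate 3 alone, 2 without 4:30, 2 without 13:30, 2 without the IH library of replicate 2 at 13:30, 0 with the kidney marker term, 0 with the hepatocyte marker term and 0 to 7 when a replicate was left out. In replicate 3 alone the liver log2 changes were 0.16 for Cyp7a1, 0.016 for Cyp8b1, 0.19 for Cyp27a1, 0.077 for Cyp7b1, 0.24 for Abcb11, 0.16 for Abcc2, 0.38 for Slc10a1, 0.25 for Slco1b2 and 0.17 for Nr0b2. With the hepatocyte marker term Cyp7a1 was at 0.12, Slc10a1 at 0.021 and Slco1b2 at 0.27. With the kidney marker term Cyp27a1 was at 0.023, Abcb11 at 0.037, Slco1b2 at 0.012 and Nr0b2 at 0.46. Slco1b2 ran from -0.47 to 0.042 as a replicate was left out, the latter without replicate 2. The cause was not tested. The hepatocyte marker term, the fits without single libraries for rhythm, time points and tissue differences, and the unfiltered lung fits of subsets were chosen after seeing the data.

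The kidney count of 0 became 1 in replicate 2 alone. The lung count of 0 became 2 without the filter, 1 on TPM as deposited, 1 with upper quartile scaling, 1 with the number of detected genes as a term, 1 in replicate 1 alone, 1 in replicate 2 alone and 0 to 2 when a replicate was left out. The call in replicate 2 alone was Slc10a1, which was also 1 of the 2 without replicate 3. In these 2 fits 4 members were tested instead of 3. Slc10a1 reached the filter there through its IH libraries, averaging 0.177 TPM in normoxia and 1.95 TPM after IH in replicate 2. In the lung Cyp27a1 turned to -0.077 with the number of detected genes, Cyp7b1 to 0.080 as deposited and 0.053 with upper quartile scaling, and Cyp8b1 to -0.020 in replicate 1 alone. The heart count of 0 became 1 with upper quartile scaling and 1 in replicate 1 alone, and Cyp27a1 was at 0.049 in replicate 3 alone. The cerebellum count of 0 became 1 without 1:30, 1 without the IH library of replicate 3 at 1:30 and 0 to 1 when a replicate was left out, and Slco1b2 was at 0.33 in replicate 3 alone. The count of rhythmic genes of 3 in normoxia livers went from 1 to 5 when a replicate was left out. The count of 0 after IH went from 0 to 2, and became 3 without the library of replicate 2 at 13:30 and 1 by least squares on TPM. The count of 3 between liver and kidney went from 0 to 4. Over all genes, the calls in the liver were 415, and 5 with the kidney marker term.

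Same-numbered replicates were different mice and deviated together only in part (24 liver pairs, median r = 0.224, from -0.258 to 0.571, 16 above 0.1), so the number was no pairing. With a replicate block the liver count was 4, normoxia livers had 4 rhythmic members (Slco1b2 added, adjusted p = 0.00953) beside 3733 genes against 2084, and IH livers had 1 beside 642 against 337.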

Other observations

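Cyp8b1 has a close neighbour, Ackr2, a chemokine scavenging receptor on the opposite strand whose annotated end lies 3281 bases away with no overlap. This pair was looked at after the lung values of Cyp8b1 had been seen, so its p-values describe a chosen pair and do not measure chance. In the lung Ackr2 averaged 23.2 TPM in normoxia and 22.3 TPM after IH, where Cyp8b1 averaged 1.53 and 2.28 TPM. Over the 24 normoxia lungs the genes gave r = 0.77 (permutation p = 3e-05, adjusted over 4 relations 0.00012), rho = 0.737 (permutation p = 0.0001, adjusted 0.0004) and r = 0.777 without the 2 farthest libraries. Over the 24 IH lungs r was 0.503 (permutation p = 0.0127, adjusted 0.0169) and rho 0.505. In the liver, where Cyp8b1 is far higher, r was 0.428 in normoxia and 0.602 after IH. The libraries share time points, and the part of rhythm in these values was not tested.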
